A study of Mus musculus with 19 samples.

Results

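The genes described here belong to one synaptic adhesion system: the neurexins Nrxn2 and Nrxn3, the neuroligins Nlgn1, Nlgn2 and Nlgn3, and the cerebellins Cbln1, Cbln2 and Cbln4. They are 8 of the 55487 genes in each deposited table and were found by symbol from the Ensembl identifiers of the rows. Other neurexin and cerebellin genes were not analysed here. The genes were chosen by their values in 2 comparisons, miR-146a LNA against control LNA cultures, where Nlgn1 and Cbln4 were lower, and knockout against wild-type cords. Values and calls in both comparisons are therefore a description: no p-value of these genes is given there, and their calls are counted beside the share of all genes called, with nothing read from them. Wild-type cords against control cultures played no part in the choice, and that comparison was tested.

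Neurexins are adhesion receptors of the presynaptic membrane, made in long and short forms from separate promoters. Neuroligins are their partners on the postsynaptic membrane: Nlgn1 is known mainly from excitatory synapses, Nlgn2 from inhibitory synapses and Nlgn3 from both. Cerebellins are secreted proteins that sit in the cleft and tie neurexins to postsynaptic receptors such as Grid1, and Cbln4 is also known to bind Dcc. In the spinal cord the system is expressed by neurons of many classes, and glial cells also carry neuroligins. Gene-level counts do not separate promoters or splice forms.

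The series measured RNA in mice and cells in which miR-146a, a microRNA that restrains NF-kB signalling, was lost or blocked. Spinal cords gave 9 libraries labelled miR-146a KO and 4 labelled WT. Motor neurons gave 3 libraries after 10 nM of a locked nucleic acid (LNA, an oligonucleotide that binds and blocks a microRNA) against miR-146a for 72 h, and 3 libraries after a control LNA. Both sets of cultures came from 1 mouse embryonic stem cell line, RW.4, labelled wild-type, were differentiated with retinoic acid and the Smoothened agonist SAG, and received the LNA with Lipofectamine 2000. The labels give no strain, age, sex or litter for the cords and do not say that libraries came from separate animals or separate differentiations, and p-values then reflect nothing beyond library-to-library spread, which may be technical.

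The labels name miR-146a without an arm, and its 5p arm is shown with that of its relative miR-146b, because both share one seed, the stretch that pairs with target RNAs. Sequences are from RefSeq (GRCm38.p6), 5′ to 3′, with the seed (bases 2 to 8) in capitals. miR-146a-5p lies at chr11:43374435-43374456 on the minus strand and miR-146b-5p at chr19:46342790-46342811 on the plus strand.
mmu-miR-146a-5p: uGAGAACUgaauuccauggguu
mmu-miR-146b-5p: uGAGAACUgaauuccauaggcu

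The complement of the seed, AGTTCTC, was looked for on the sense strand of the longest annotated 3′ untranslated region (3′UTR) of each gene in GENCODE M21. Nrxn2 held 1 match, at position 245 of 1779 bases, and Nlgn1 held 1, at position 1087 of 7423 bases. Cbln2 also held 1 match, while Nrxn3, Nlgn2, Nlgn3, Cbln1 and Cbln4 held 0. The windows of Nrxn2 and Nlgn1 are shown, with the match in capitals, because these 2 genes were called in the cultures under every setting tried. These calls come from the comparison that chose the genes, so nothing is read from the choice of windows. The window of Cbln2 is not reported here.
Nrxn2 site: tgcggctgagaAGTTCTCcagcatgttct
Nlgn1 site: attctgattacAGTTCTCagtcgattgat
Among 21011 protein-coding genes with a 3′UTR, 2346 (11.2%) held at least 1 match. The share differed with length. It was 10.9% for 3′UTRs over 1000 and up to 2000 bases, the class of Nrxn2 and Cbln2. It was 42.8% for those over 4000 bases, the class of Nlgn1. A match is a string of letters and does not show a working target site. Of the 3 genes with a match, Nrxn2 and Nlgn1 had lower and Cbln2 had higher values in the miR-146a LNA cultures.

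Cord libraries held 28163289 to 39577247 counts and culture libraries 40647549 to 65471742. A level of 3 counts is 0.0758 to 0.1065 CPM in a cord library, against 0.0458 to 0.0738 CPM in a culture library. The labelled materials were checked by marker genes: the 6 motor neuron markers, among them Chat, Isl1 and Mnx1, summed to 2950 to 3130 normalised CPM (CPM after TMM scaling within cords or within cultures) over the 6 culture libraries, and the 5 microglia markers summed to at most 0.606. Prph gave the largest part of the motor neuron sum, with means of 1630 with miR-146a LNA and 1560 with control LNA. Chat, Isl1 and Mnx1 averaged 89.6, 210 and 41.4 with control LNA. In cords the 5 oligodendrocyte markers summed to 10600 to 15000 in KO and 11700 to 15900 in WT. The targeted gene could not check the labels, because the annotated Mir146 gene held 1 count over the 9 KO cords, 0 over the WT cords and 0 over the cultures. Among cords, 2 libraries stood apart. In the library labelled knockout replicate 9, Pttg1 had 13 normalised CPM, against 1.06 to 1.81 in the other 8 KO cords and 14.9 to 17.4 in WT cords, and Sod1 had 1950 normalised CPM, against 191 to 263 in the other 8 KO cords and 261 to 275 in WT cords. In knockout replicate 7, Acta1, an actin of skeletal muscle, had 2560 normalised CPM, against 1.2 to 2.2 in the other 8 KO cords. Fold changes, levels, spread and overlap of the 8 genes in cords are given with and without both. Pttg1, Sod1 and Acta1 were chosen after their values were seen. At Pttg1 the library labelled knockout replicate 9 lay nearer to WT cords than to the other KO cords. Its genotype label is therefore uncertain, could not be checked here, and was kept as given.

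The neurexins and neuroligins held different ranks in cords and in cultures. On the TPM scale, which the authors computed per gene length and which allows levels of different genes to be compared, Nlgn2 was highest in cords, at 199 ± 17.2 TPM in KO (SD, n = 9) and 214 ± 6.43 TPM in WT (SD, n = 4). Nrxn2 followed at 128 ± 9.09 TPM in KO and 128 ± 1.96 TPM in WT, then Nrxn3 at 71.9 ± 13.4 TPM in KO and 67.4 ± 4.31 TPM in WT. Cbln1, known best as the cerebellin of the cerebellar parallel fibre synapse, had 41.8 ± 7.69 TPM in KO and 47.3 ± 1.79 TPM in WT. Cbln2 came next with 26.4 ± 3.28 TPM in KO and 27.2 ± 0.924 TPM in WT.

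The 3 lowest genes in cords lay close together. Cbln4 had 14.7 ± 1.95 TPM in KO and 14.9 ± 0.627 TPM in WT, Nlgn3 had 13.6 ± 1.38 TPM in KO and 12.7 ± 0.677 TPM in WT, and Nlgn1 had 11.3 ± 1.66 TPM in KO and 11.1 ± 0.744 TPM in WT. In KO cords the libraries of Cbln1 overlapped those of Cbln2, those of Cbln4 overlapped those of Nlgn3, and those of Nlgn3 overlapped those of Nlgn1. The overlap of Cbln1 with Cbln2 came from knockout replicate 7 alone, where Cbln1 had 26.26 TPM. In every other KO cord Cbln1 had at least 34.95 TPM, against at most 30.79 TPM for Cbln2. Without both libraries that stood apart, Cbln4 still overlapped Nlgn3, and Nlgn3 still overlapped Nlgn1. In WT cords only Nlgn3 and Nlgn1 overlapped among neighbours in this order. In the 7 KO cords other than both that stood apart, mean levels were 200 TPM for Nlgn2, 129 for Nrxn2, 69.0 for Nrxn3, 43.9 for Cbln1, 27.5 for Cbln2, 15.6 for Cbln4, 13.8 for Nlgn3 and 11.3 for Nlgn1, in the same order.

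In cultures the order was headed by Cbln2, a cerebellin, at 90.5 ± 7.72 TPM with miR-146a LNA and 76.6 ± 0.256 TPM with control LNA (SD, n = 3 each). The neuroligins were next in control cultures, with Nlgn3 at 19.1 ± 1.16 TPM, Nlgn1 at 18.6 ± 0.324 TPM and Nlgn2 at 14.7 ± 0.122 TPM. The libraries of Nlgn3 and Nlgn1 overlapped there. In miR-146a LNA cultures Nlgn3 had 18.1 ± 1.56 TPM, and Nlgn2 at 14.1 ± 1.10 TPM now stood before Nlgn1 at 13 ± 0.530 TPM, with overlapping libraries.

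Both neurexins came below the neuroligins in cultures. Nrxn3 had 9.93 ± 0.445 TPM with miR-146a LNA and 11.6 ± 1.16 TPM with control LNA, and Nrxn2 had 7.93 ± 0.658 TPM with miR-146a LNA and 11.5 ± 0.973 TPM with control LNA. Their libraries did not overlap in miR-146a LNA cultures and did in control cultures. Cbln1, at 3.0 ± 0.0851 TPM with miR-146a LNA and 3.61 ± 0.670 TPM with control LNA, and Cbln4, at 1.08 ± 0.525 TPM with miR-146a LNA and 2.43 ± 0.721 TPM with control LNA, were lowest. The libraries of Cbln1 and Cbln4 overlapped in control cultures and did not in miR-146a LNA cultures.

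**Figure D1:**
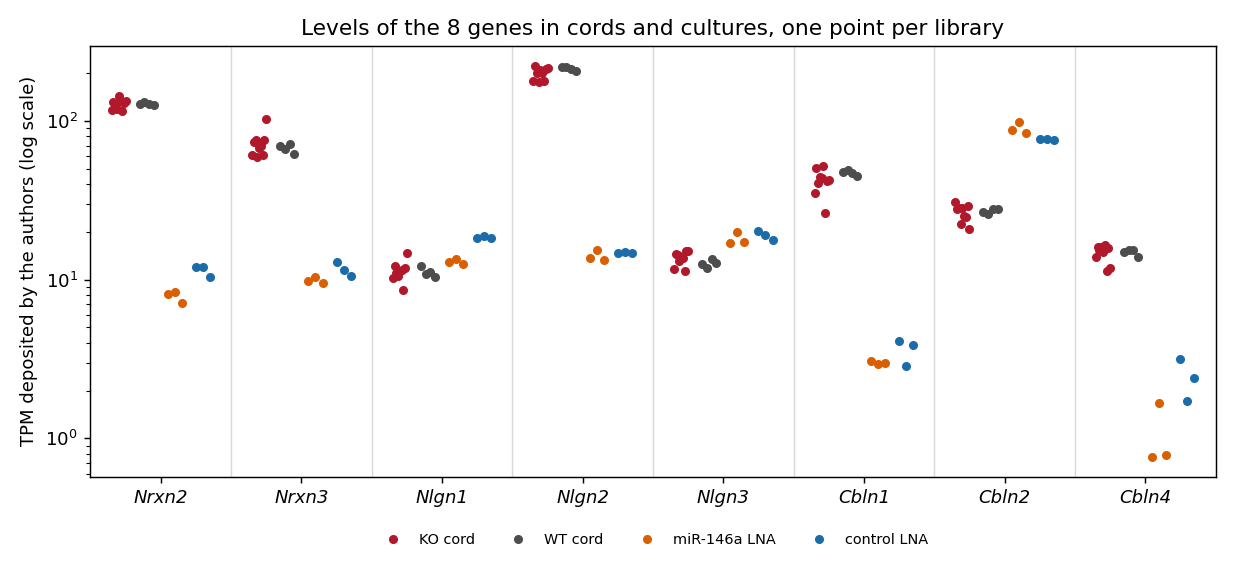
TPM (log axis) of the 8 genes, 1 point per library, in KO cords (n = 9), WT cords (n = 4), miR-146a LNA cultures (n = 3) and control LNA cultures (n = 3). Nlgn2 averaged 214 TPM in WT cords and 14.7 TPM in control cultures, while Cbln2 averaged 27.2 TPM in WT cords and 76.6 TPM in control cultures.

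All 8 genes differed between WT cords and control LNA cultures in edgeR's quasi-likelihood test at an adjusted p under 0.05, where 85.4% of the 21106 genes tested did so. Higher in WT cords were 5, and lower 3, where 44.9% of tested genes were higher and 40.5% lower. In TPM every WT cord lay above every control culture for the same 5 genes (39.9% of tested genes) and below for the same 3 (44.5%). The inhibitory-synapse neuroligin Nlgn2 stood at a log2 fold change of 4.09 ± 0.06 (SE; edgeR adjusted p = 3.64e-18), Cbln1 at 3.93 ± 0.11 (adjusted p = 7.75e-15), Nrxn2 at 3.71 ± 0.07 (adjusted p = 4.91e-17), Cbln4 at 2.83 ± 0.17 (adjusted p = 1.21e-10) and Nrxn3 at 2.76 ± 0.07 (adjusted p = 1.83e-15). Lower in WT cords were Cbln2, at -1.27 ± 0.06 (adjusted p = 1.13e-11), Nlgn1, at -0.52 ± 0.05 (adjusted p = 1.74e-07), and Nlgn3, at -0.37 ± 0.07 (adjusted p = 0.000107). Each of the 8 calls held under all 12 alternative settings. All of these settings scale libraries to a common total or to genes taken as mostly unchanged, while most tested genes were called. The small changes of Nlgn1 and Nlgn3 are therefore relative to that scaling, under which the median over all tested genes was 0.14. Material and any difference in library preparation go together in this comparison and cannot be told apart, and in bulk RNA fewer cells of a type and less RNA per cell cannot be told apart either. The 4 inhibitory neuron markers summed to 1170 to 1210 normalised CPM in WT cords and to 28.4 to 38.5 in control cultures, with each material scaled on its own. The 3 excitatory neuron markers summed to 193 to 203 in WT cords and 2.15 to 2.62 in control cultures, and the 6 motor neuron markers to 265 to 312 in WT cords and 2950 to 3050 in control cultures. The part of this mix in the levels was not tested.

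Cords and cultures also differed in the makeup of each family. Of the summed TPM of the 3 neuroligins, Nlgn2 took 88.9% ± 0.637 in KO cords and 90.0% ± 0.447 in WT cords, against 31.2% ± 0.452 in miR-146a LNA cultures and 28.1% ± 0.644 in control cultures (SD). Nlgn1 took 5.04% ± 0.447 in KO cords and 4.66% ± 0.224 in WT cords, but 28.7% ± 0.876 in miR-146a LNA cultures and 35.5% ± 0.834 in control cultures. Of the 3 cerebellins, Cbln1 took 50.1% ± 5.02 in KO cords and 52.9% ± 1.18 in WT cords, whereas Cbln2 took 95.7% ± 0.131 in miR-146a LNA cultures and 92.7% ± 1.53 in control cultures. Cbln4 took 17.7% ± 1.08 in KO cords, 16.7% ± 0.398 in WT cords, 1.11% ± 0.442 in miR-146a LNA cultures and 2.93% ± 0.820 in control cultures. Nrxn2 took 64.2% ± 3.36 of the sum of the 2 neurexins in KO cords, 65.6% ± 1.41 in WT cords, 44.4% ± 1.24 in miR-146a LNA cultures and 49.7% ± 1.2 in control cultures. In the 7 KO cords other than both that stood apart, the shares were 88.9% for Nlgn2, 50.3% for Cbln1, 17.9% for Cbln4 and 65.2% for Nrxn2.

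**Figure D2:**
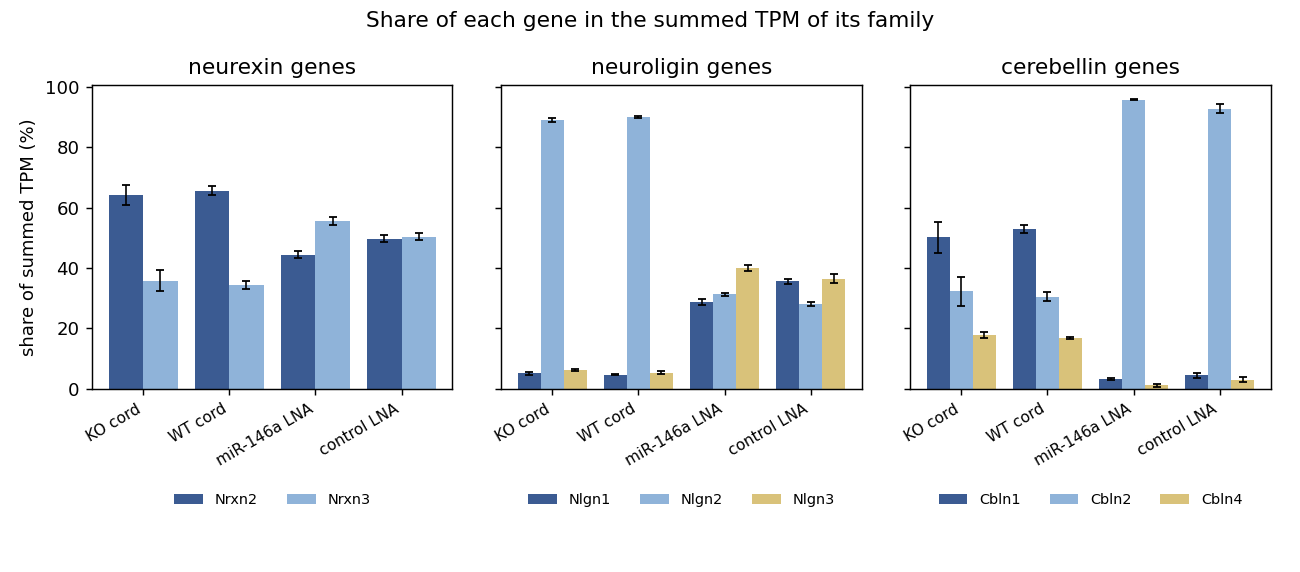
Mean share of each gene in the summed TPM of its family (%, linear axis from 0), with SD over libraries, in KO and WT cords and in miR-146a LNA and control LNA cultures. Nlgn2 holds 90.0% of the neuroligin sum in WT cords and 28.1% in control cultures, and Cbln2 holds 30.4% of the cerebellin sum in WT cords and 92.7% in control cultures.

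In the cultures, 3 of the 8 genes were called lower with miR-146a LNA (Nrxn2, Nlgn1 and Cbln4) and 1 higher (Cbln2) at an edgeR adjusted p under 0.05. Over all 19099 genes tested, 8.56% were called, 6.16% lower and 2.4% higher. With library size alone in place of TMM scaling, the split of all calls was 831 lower and 741 higher, against 1177 lower and 458 higher with TMM, and the same 4 genes were called. In 5 of the 8 genes the miR-146a LNA and control LNA libraries did not overlap, where 28.0% of tested genes showed no overlap. All miR-146a LNA libraries lay below the control libraries in 4 of them (15.1% of tested genes) and above in 1 (12.8%). Since this comparison chose the genes, nothing is read from these counts.

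Of the neurexins, Nrxn2 was called lower and Nrxn3 was not. Nrxn2 had 29.9, 30.3 and 26.7 normalised CPM in miR-146a LNA cultures and 43.9, 43.6 and 37.8 in control LNA cultures. Every miR-146a LNA library lay below every control library, and the log2 fold change was -0.53 ± 0.08 (SE), between -0.60 and -0.48 when each library was left out in turn. Nrxn3 had 33.0, 34.3 and 32.5 normalised CPM in miR-146a LNA cultures and 42.9, 38.7 and 35.2 in control cultures. Its libraries did not overlap either, but the gap was narrow, the log2 fold change was -0.23 ± 0.08, and it was not called in the main test or any of 12 alternatives. The approximate 95% interval of Nrxn3 ran from -0.38 to -0.07, and is a description like the other values of this comparison.

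Of the neuroligins, Nlgn1 alone was called. Nlgn1 had 45.6, 47.3 and 45.1 normalised CPM in miR-146a LNA cultures and 65.0, 66.8 and 65.1 in control cultures. The means of 46.0 ± 1.15 with miR-146a LNA and 65.7 ± 1.03 with control LNA (SD, n = 3 each) were separated with no overlap, and the log2 fold change of -0.51 ± 0.06 stayed between -0.54 and -0.50 on leaving out any 1 library. Nlgn2 had 21.1, 23.1 and 20.6 normalised CPM with miR-146a LNA and 22.3, 22.6 and 22.4 with control LNA. Nlgn3 had 41.8, 48.0 and 43.3 with miR-146a LNA and 49.5, 46.5 and 43.9 with control LNA. The libraries of both overlapped, at log2 fold changes of -0.06 ± 0.08 for Nlgn2 and -0.07 ± 0.07 for Nlgn3, whose approximate 95% intervals ran from -0.22 to 0.11 and from -0.21 to 0.07.

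Of the cerebellins, Cbln2 was called higher and Cbln4 lower. Cbln2 had 67.5, 74.6 and 65.4 normalised CPM in miR-146a LNA cultures and 58.6, 58.3 and 58.4 in control LNA cultures. Every miR-146a LNA library lay above the control libraries, which were almost level, and the log2 fold change was 0.24 ± 0.06. The call was absent without control replicate 1 (0.25), control replicate 2 (0.24), control replicate 3 (0.24) or miR-146a LNA replicate 2 (0.18), replicate 2 being the highest library. Cbln1 had 2.48, 2.31 and 2.43 normalised CPM with miR-146a LNA and 3.28, 2.27 and 3.11 with control LNA, with overlap and a log2 fold change of -0.26 ± 0.21. Its approximate 95% interval ran from -0.67 to 0.15.

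Cbln4 was the member with the fewest reads. Its counts were 24, 84 and 38 in miR-146a LNA cultures and 144, 72 and 96 in control cultures, or 0.584, 1.27 and 0.613 normalised CPM with miR-146a LNA, against 2.42, 1.32 and 1.84 with control LNA. The highest miR-146a LNA library, replicate 2, lay just under the lowest control library, replicate 2. The log2 fold change was -1.16 ± 0.34. Its call was absent with limma and without control replicate 1 (-0.92), control replicate 3 (-1.17), miR-146a LNA replicate 1 (-0.98) or miR-146a LNA replicate 3 (-0.96), while without miR-146a LNA replicate 2 it was kept at -1.63.

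**Figure D3:**
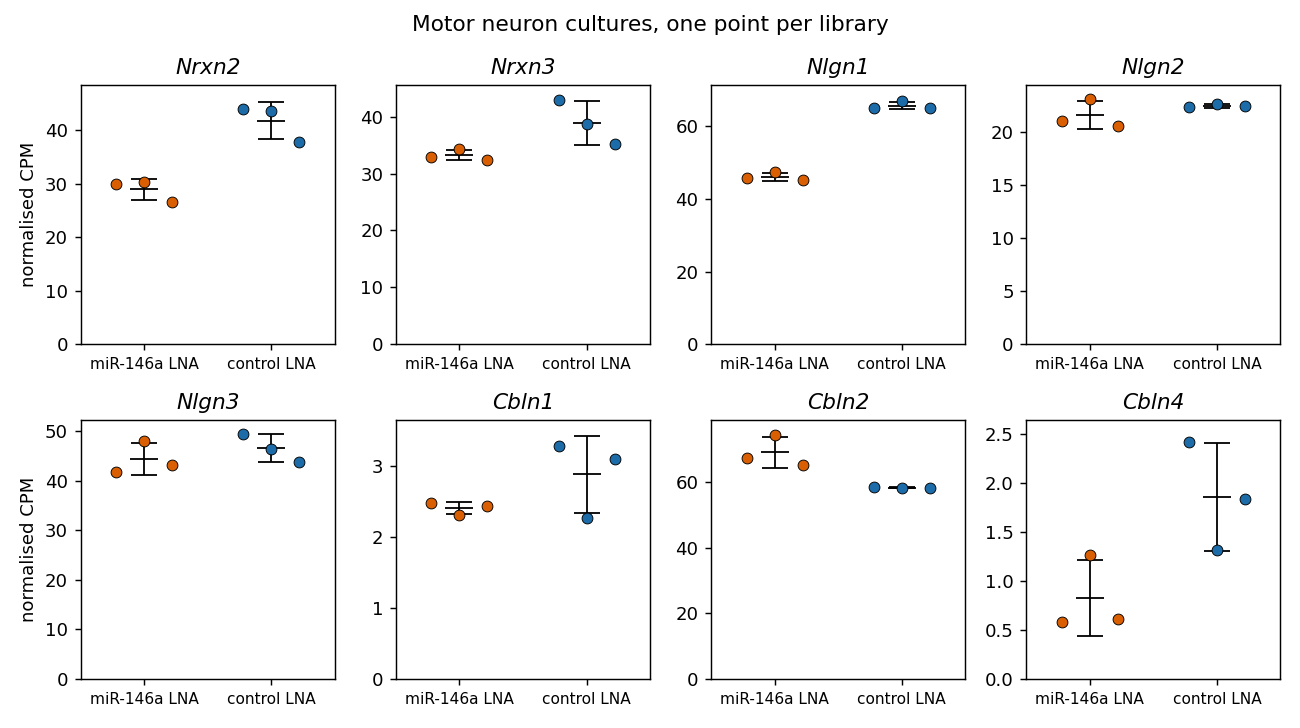
Normalised CPM (linear axes from 0) of the 8 genes in miR-146a LNA and control LNA cultures, 1 point per library, with the mean and SD of each group (n = 3). The groups do not overlap for Nlgn1 and Nrxn2, and the nearest Cbln4 libraries are 1.27 with miR-146a LNA and 1.32 with control LNA.

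Markers of other cells moved in the same cultures. Of 4 inhibitory neuron markers, 3 were lower with miR-146a LNA, Gad1, Gad2 and Slc6a5, and the list summed to 19.2 to 21.2 normalised CPM with miR-146a LNA, against 28.4 to 38.5 with control LNA. None of its markers was at 0. Slc32a1, the other marker of the list, had a log2 fold change of -0.85 and was not called (edgeR adjusted p = 0.0518). The log2 fold change was -1.07 for Gad1, whose call held on leaving out each library. It was -0.44 for Gad2, not called without control replicate 1 or 3 (from -0.53 to -0.36 over the libraries left out), and -1.19 for Slc6a5, not called without control replicate 1 or any 1 of the miR-146a LNA libraries (from -1.40 to -0.70). Slc6a5 was also not called with library size alone or with limma. The 3 excitatory neuron markers, of which 2 could be tested, summed to 1.36 to 1.92 with miR-146a LNA and 2.15 to 2.62 with control LNA. Those sums did not overlap, and none of the excitatory markers was called. Of 6 neuron markers, Map2 was lower, and the sum was 3560 to 3700 with miR-146a LNA and 3920 to 4090 with control LNA. Of 6 motor neuron markers, Isl1 was higher, and the sums of 2970 to 3130 with miR-146a LNA and 2950 to 3050 with control LNA overlapped. Of 4 neural progenitor markers, Nes was higher, with sums of 67.2 to 79.7 with miR-146a LNA and 51.8 to 60.7 with control LNA. Of 3 oligodendrocyte precursor markers, Pdgfra was higher (log2 fold change 0.48, sums of 9.01 to 10.3 with miR-146a LNA and 6.45 to 8.16 with control LNA), and of 4 fibroblast markers, Dcn was higher (1.44, sums of 2.76 to 4.04 with miR-146a LNA and 1.02 to 3.22 with control LNA). Each of these calls held in 1 of the 6 fits that left out a library, without miR-146a LNA replicate 3 for Pdgfra and replicate 2 for Dcn, over log2 ranges of 0.38 to 0.56 and 1.17 to 1.6, and DESeq2 did not call Dcn. The part of these shifts in the values of Nrxn2, Nlgn1, Cbln2 and Cbln4 was not tested.

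Among 93 other genes of the system in 6 lists, all of them tested, 25 were lower with miR-146a LNA and 0 higher at an edgeR adjusted p under 0.05, and their median log2 fold change was -0.14, against 0.01 over all genes. Without control replicate 2 there were 18 calls, with library size alone 19, and with DESeq2 31. The lists were drawn up with results of these data known, and the share of all tested genes called lower was 6.16%.

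Among the receptors of the cerebellins, Grid1 and Dcc were lower. Grid1 had 5.09 ± 0.825 normalised CPM with miR-146a LNA and 8.32 ± 0.626 with control LNA (SD; log2 fold change -0.71 ± 0.15 SE, edgeR adjusted p = 0.00579), and Dcc, a netrin receptor that binds Cbln4, had 44.2 ± 4.89 with miR-146a LNA and 71.1 ± 4.08 with control LNA (-0.69 ± 0.08, adjusted p = 4.04e-05). Neo1, a relative of Dcc, had 204 ± 10.2 with miR-146a LNA and 224 ± 10.7 with control LNA (-0.13 ± 0.05, adjusted p = 0.144). The calls of Grid1 and Dcc held on leaving out each library.

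Of 23 other neurexin ligands, 3 were lower, with a median of -0.09. The latrophilin Adgrl3 had 27.1 ± 1.30 normalised CPM with miR-146a LNA and 44.2 ± 4.47 with control LNA (log2 fold change -0.70 ± 0.08, edgeR adjusted p = 4.04e-05). C1ql2, a secreted relative of the cerebellins, had 3.94 ± 0.495 with miR-146a LNA and 7.82 ± 0.857 with control LNA (-0.98 ± 0.16, adjusted p = 0.00056), and the secreted ligand Fam19a2 had 106 ± 11.6 with miR-146a LNA and 143 ± 8.85 with control LNA (-0.44 ± 0.07, adjusted p = 0.00108). All 3 calls held on leaving out each library, and DESeq2 and limma each called 5 genes of this list.

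Of 17 neuroligin partners and postsynaptic scaffolds, 4 were lower, with a median of -0.15. Mdga2, which binds neuroligins on their own membrane and blocks their contact with neurexins, had 56.4 ± 4.03 normalised CPM with miR-146a LNA and 94.9 ± 8.65 with control LNA (log2 fold change -0.75 ± 0.07, edgeR adjusted p = 9.06e-06). The scaffolds Magi2 (-0.48 ± 0.06, adjusted p = 6.64e-05), Dlg2 (-0.51 ± 0.08, adjusted p = 0.000508) and Dlg4 (-0.24 ± 0.07, adjusted p = 0.0389) were also lower. The calls of Mdga2, Magi2 and Dlg2 held on leaving out each library. Dlg4 was not called with library size alone, nor without control replicate 1 (-0.24), 2 (-0.26) or 3 (-0.22) or miR-146a LNA replicate 1 (-0.21).

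On the presynaptic side, 5 of 14 scaffold genes were lower, with a median of -0.12. They included the liprin Ppfia2 (log2 fold change -0.59 ± 0.05, edgeR adjusted p = 3.98e-06), the neurexin-binding scaffold Cask (-0.34 ± 0.06, adjusted p = 0.000725) and its partner Apba1 (-0.31 ± 0.05, adjusted p = 0.00123). Of 30 other synaptic adhesion receptors, 8 were lower, with a median of -0.19, among them Cadm2 (-0.78 ± 0.08, adjusted p = 1.93e-05), Lrfn5 (-0.41 ± 0.05, adjusted p = 6.2e-05), Ntrk3 (-0.52 ± 0.09, adjusted p = 0.000777) and Il1rapl1 (-0.63 ± 0.13, adjusted p = 0.0035). The 8 calls of this list became 4 without control replicate 2 and 5 with library size alone. The calls of the 7 genes named here held on leaving out each library.

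Of 5 genes that splice or shed neurexins, 2 were lower, with a median of -0.12: the splicing factors Khdrbs3 (log2 fold change -0.23 ± 0.05, edgeR adjusted p = 0.0107) and Khdrbs2 (-0.27 ± 0.08, adjusted p = 0.0393). Khdrbs3 was not called without control replicate 3 (-0.19), and Khdrbs2 was not called with library size alone or without control replicate 1 (-0.22), control replicate 2 (-0.27) or miR-146a LNA replicate 1 (-0.20).

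The share of genes called lower differed with gene length in these cultures. Of genes spanning up to 100 kb, 3.31% of 16773 were called lower, of those from 100 to 500 kb 24.3% of 2104, and of those over 500 kb 50% of 222, with 1 of the 222 higher. Nlgn1 spans 906.2 kb (chr3:25426215-26332460, minus strand, GRCm38) and was lower, whereas Nrxn3, the longest member at 1612.1 kb (chr12:88722876-90334935, plus strand), was not called. Nrxn2 spans 125.4 kb (chr19:6418731-6544169, plus strand). Cbln4 (chr2:172036233-172043466, minus strand) and Cbln2 each span 7.2 kb. Nlgn2 spans 14.7 kb (chr11:69823122-69837784, minus strand), Nlgn3 26.8 kb (chrX:101299168-101325963, plus strand) and Cbln1 4.2 kb (chr8:87468405-87472609, minus strand). Of the 93 other genes of the system, 11 of 17 over 500 kb, 8 of 29 from 100 to 500 kb and 6 of 47 up to 100 kb were lower. The part of gene length in the values of the members was not tested.

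**Figure D4:**
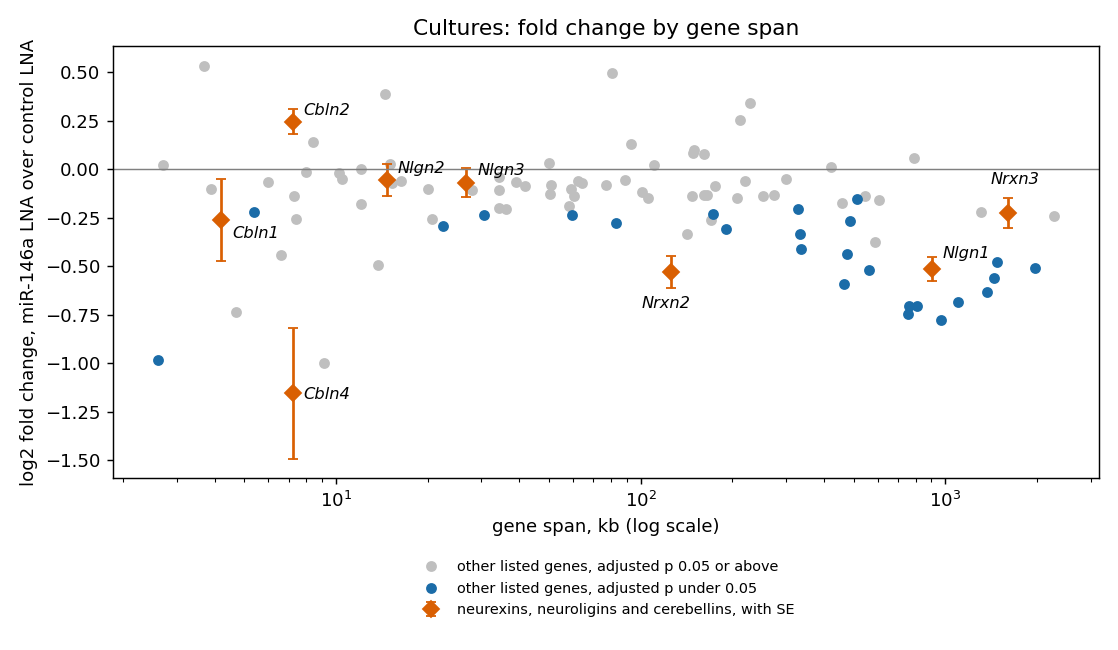
Log2 fold change of miR-146a LNA over control LNA against gene span in kb (log axis) for the 8 members, as diamonds with SE, and the 93 other genes of the system. Of the 17 other genes over 500 kb, 11 are called lower, Nlgn1 lies at -0.51 and Nrxn3 at -0.23, while the short Cbln4 and Cbln2 lie at -1.16 and 0.24.

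In spinal cords, none of the 8 genes was called between KO and WT in edgeR's quasi-likelihood test, where 0.0% of the 22174 genes tested were called. At an unadjusted p under 0.05 there were 3177 genes (14.3%), 1 of the 8 among them. DESeq2 called 348 genes and limma 3, none of them a member, and no member was called under any of 19 alternatives. The KO and WT libraries of all 8 genes overlapped, where 1.3% of tested genes did not overlap, with 0.798% lying below and 0.505% above every WT library in all KO libraries.

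Nlgn2, the neuroligin of inhibitory synapses, had values below those of WT in most KO cords. It had 324 as the lowest, 360.0 as the median and 411 as the highest normalised CPM in the 9 KO cords, and 397, 421, 387 and 409 in the 4 WT cords. Of the 9 KO libraries, 8 lay below every WT library (6 of 7 without both that stood apart), and the log2 fold change was -0.17 ± 0.06 (SE). It was -0.16 ± 0.07 without the library labelled knockout replicate 9, -0.14 ± 0.06 without replicate 7 and -0.13 ± 0.06 without both. Nlgn1 had a lowest value of 36.0, a median of 48.3 and a highest of 55.6 normalised CPM in KO cords and 50.9, 48.0, 47.1 and 47.8 in WT cords, with the WT libraries inside the KO range and a log2 fold change of -0.03 ± 0.09. Nlgn3 had 32.6, 40.8 and 43.0 as lowest, median and highest in KO cords and 36.4, 36.4, 39.5 and 40.4 in WT cords, likewise inside the KO range, with a log2 fold change of 0.05 ± 0.07. Without both libraries that stood apart, these values were -0.005 ± 0.05 for Nlgn1 and 0.10 ± 0.06 for Nlgn3. For Nlgn3, 5 of the 9 KO libraries lay above and 2 below every WT library (5 and 1 of 7 without both). For Nlgn1, 2 lay above and 4 below (1 and 3 of 7 without both). The share of all tested genes with as many KO libraries outside the WT range was not computed, so nothing is read from these counts.

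Both neurexins overlapped between KO and WT cords. Nrxn2 had a lowest value of 502, a median of 538 and a highest of 625 normalised CPM in KO cords and 554, 600, 557 and 598 in WT cords, with a log2 fold change of -0.06 ± 0.06. Nrxn3 had 239, 285 and 367 as lowest, median and highest in KO cords and 275, 280, 288 and 269 in WT cords, with a log2 fold change of 0.03 ± 0.10. The highest Nrxn3 value came from the library labelled knockout replicate 9, and without it the log2 fold change was -0.03 ± 0.07. Without both libraries that stood apart, the log2 fold changes were -0.02 ± 0.06 for Nrxn2 and 0.01 ± 0.06 for Nrxn3. For Nrxn2, 2 of the 9 KO libraries lay above and 6 below every WT library (2 and 4 of 7 without both). For Nrxn3, 4 lay above and 3 below (3 and 2 of 7 without both).

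Among the cerebellins, Cbln1 had a lowest value of 24.9, a median of 38.8 and a highest of 50.9 normalised CPM in KO cords and 45.5, 49.5, 45.3 and 46.7 in WT cords. Of the 9 KO libraries, 7 lay below every WT library (5 of 7 without both that stood apart), and the lowest was replicate 7. The log2 fold change was -0.24 ± 0.14, and -0.13 ± 0.09 without both libraries that stood apart. Cbln2 had 17.0, 25.6 and 28.9 as lowest, median and highest in KO cords and 24.2, 25.0, 25.4 and 27.8 in WT cords (log2 fold change -0.10 ± 0.11). Cbln4 had 9.60, 14 and 15.7 in KO cords and 13.6, 14.7, 14 and 13.9 in WT cords (-0.07 ± 0.12). The lowest Cbln2 and Cbln4 values were in the library labelled knockout replicate 9, and without both libraries that stood apart the log2 fold changes were -0.01 ± 0.08 for Cbln2 and 0.04 ± 0.07 for Cbln4. For Cbln2, 1 of the 9 KO libraries lay above and 4 below every WT library (1 and 2 of 7 without both). For Cbln4, 3 lay above and 3 below (3 and 1 of 7 without both). Nothing is read from these counts either. The approximate 95% intervals over all libraries ran from -0.20 to 0.14 for Nlgn1 and from -0.31 to 0.16 for Cbln4. They ran from -0.29 to -0.04 for Nlgn2, from -0.10 to 0.19 for Nlgn3 and from -0.19 to 0.06 for Nrxn2. For Nrxn3 the interval was -0.16 to 0.21, for Cbln1 -0.505 to 0.033 and for Cbln2 -0.31 to 0.12. These intervals are a description too.

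**Figure D5:**
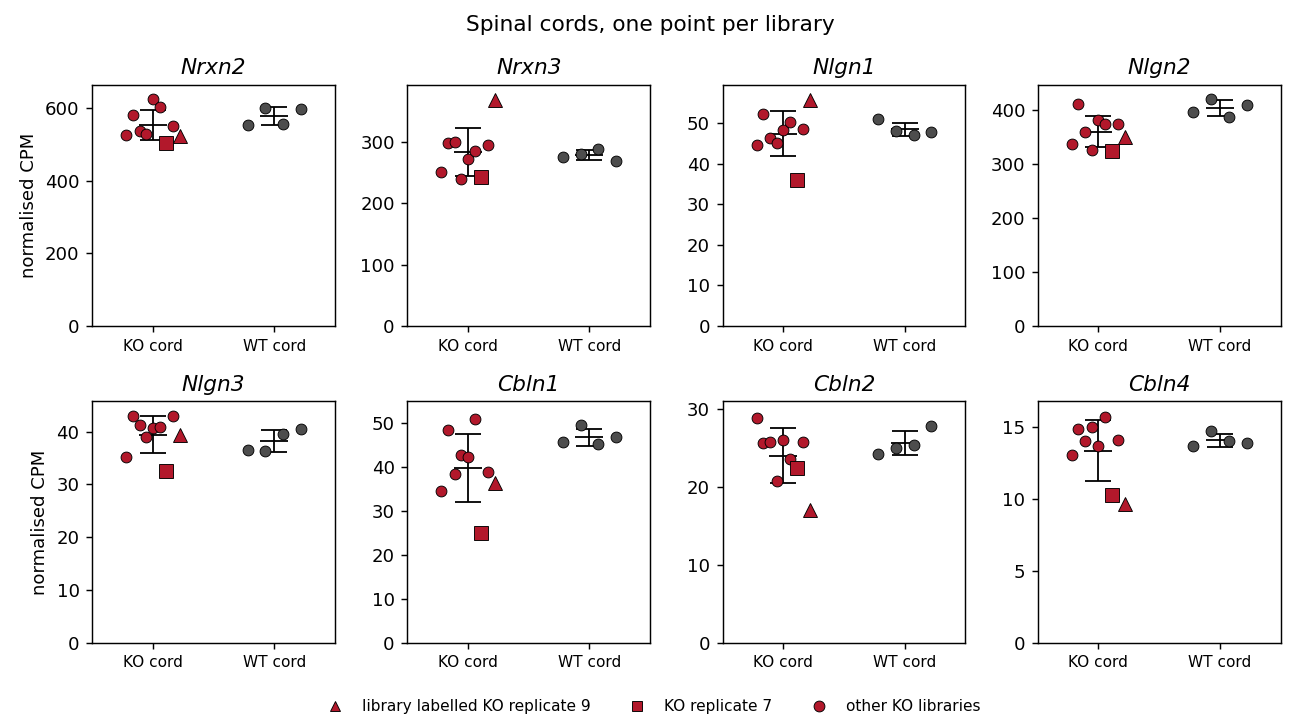
Normalised CPM (linear axes from 0) of the 8 genes in KO and WT spinal cords, 1 point per library, with the mean and SD of each group (n = 9 and 4). The library labelled knockout replicate 9 (triangle) and replicate 7 (square) hold 9 of the 16 highest or lowest values.

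KO cords varied more than WT cords in all 8 genes, as tested genes did in general. The coefficient of variation was 19.5% in KO and 4.09% in WT for Cbln1, and 14% in KO and 2.89% in WT for Nrxn3. It was 15.6% in KO and 3.21% in WT for Cbln4, and 7.46% in KO and 4.34% in WT for Nrxn2. For Cbln2 it was 14.6% in KO and 6.1% in WT, and for Nlgn1 11.6% in KO and 3.46% in WT. For Nlgn2 it was 7.96% in KO and 3.62% in WT, and for Nlgn3 8.84% in KO and 5.46% in WT. The medians over all tested genes were 19.1% in KO and 11.6% in WT. In the 7 KO cords other than both that stood apart, the coefficient of variation was 13.8% for Cbln1, 8.76% for Nrxn3 and 6.18% for Cbln4. In these 7 it was 6.98% for Nrxn2, 9.87% for Cbln2, 5.72% for Nlgn1, 7.75% for Nlgn2 and 6.63% for Nlgn3. The library labelled knockout replicate 9 held 4 of the 16 highest or lowest values of the 8 genes over the 13 cords, and replicate 7 held 5, all of them lowest values.

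The ranges of the marker sums differed in cords too. The 6 neuron markers summed to 3720 to 4500 normalised CPM in KO and 4410 to 4870 in WT, the 4 inhibitory neuron markers to 862 to 1300 in KO and 1170 to 1210 in WT, and the 3 excitatory neuron markers to 144 to 211 in KO and 193 to 203 in WT. The 5 astrocyte markers summed to 2060 to 7290 in KO and 2100 to 3010 in WT, the 5 microglia markers to 166 to 661 in KO and 182 to 223 in WT, and the 4 red blood cell markers to 27.5 to 461 in KO and 15 to 29.7 in WT. In the 7 KO cords other than both that stood apart, the sums were 3870 to 4500 for neurons, 862 to 1300 for inhibitory neurons, 172 to 211 for excitatory neurons, 2060 to 6750 for astrocytes, 166 to 536 for microglia and 69.8 to 340.0 for red blood cells. No marker in these 6 lists was called and none was at 0. For the inhibitory neuron, excitatory neuron, astrocyte and microglia markers the WT range lay inside that of all KO cords. The part of these differences in range in the values of Nlgn2 and Cbln1 was not tested.

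None of the 93 other genes of the system was called in cords, and 14 had an unadjusted p under 0.05. Without both libraries that stood apart the counts were again 0 and 14. DESeq2 called 1 of the 93, Fam19a4, and limma 0. Their median log2 fold change was -0.06, against 0.02 over all genes. By list, the gene with the smallest p was Fam19a4 among neurexin ligands (log2 fold change -0.89 ± 0.24, edgeR adjusted p = 0.292), Neo1 among cerebellin receptors (0.09 ± 0.07, adjusted p = 0.575), Nrcam among neuroligin partners (0.14 ± 0.07, adjusted p = 0.377), Lin7b among presynaptic scaffolds (-0.40 ± 0.14, adjusted p = 0.292), Lrrc4b among other adhesion receptors (-0.23 ± 0.07, adjusted p = 0.292) and Adam17, a shedding protease, among splicing and shedding genes (0.41 ± 0.27, adjusted p = 0.482). Lrrc4b, which binds a presynaptic receptor phosphatase, had 385 ± 34.8 normalised CPM in KO cords and 451 ± 20.3 in WT cords. Fam19a4 was low, at 0.904 ± 0.258 normalised CPM in KO cords and 1.68 ± 0.309 in WT cords. Its ranges of 0.506 to 1.36 in KO and 1.32 to 2.07 in WT overlapped.

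The genes most like Nlgn1 and Cbln4 over the 19 libraries were named by the smallest root mean square difference of log2 normalised CPM, centred on the mean of each material, among 13481 genes with a mean of at least 1 normalised CPM in cords and in cultures. For Nlgn1 they were the scaffold Dlg2 (0.0675), Wwox (0.0714) and the adhesion receptor Lrfn5 (0.0735), against a median of 0.23 over all genes. For Cbln4 they included the nuclear factor Mab21l2 (0.202) and Crtac1 (0.203), against a median of 0.357. In the cultures their log2 fold changes were -0.51 for Dlg2, -0.41 for Wwox and Lrfn5, -0.99 for Mab21l2 and -0.51 for Crtac1. The measure of likeness includes these culture libraries, so their direction follows in part from the choice.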

How the data were processed

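RNA of 19 mouse libraries was measured by RNA sequencing. Per the submitters' processing notes, reads were aligned with STAR 2.7.9a1 to GRCm38 and counted per gene with featureCounts, and per the design notes the annotation was Ensembl release 101. The strand setting is not given in the sources used here, so overlapping antisense genes are uncertain. The deposited tables hold whole-number counts per gene, used in every test, the CPM column the authors scaled by library total, an FPKM column of the authors, not used here, and the TPM column the authors scaled to a fixed sum, used for levels. Symbols from GENCODE M21 matched 55141 identifiers (99.4%).

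Groups came from the labels alone. Counts of the 2 groups of each comparison were filtered and TMM-scaled and tested in R 4.3.3 with edgeR 4.0.16 (quasi-likelihood test, robust setting), with Benjamini-Hochberg adjustment over all tested genes and a threshold of 0.05. Standard errors came from the fold change and the F value. Alternatives were limma 3.58.1 (voom, quality weights), DESeq2 1.42.0, 2 other scalings, no filter, leaving out each library, leaving out 2 cord libraries and a replicate block. The edgeR fit alone was also run on simulated counts with the same dispersion for every gene. Those counts held no library that stood apart, unlike the cords, so nothing is read from that run. The 8 genes, the 6 other lists and the alternatives were chosen with earlier results of these data known. Named were all 8 genes, per list up to 4 called genes of each direction with the smallest adjusted p in cultures, the smallest p in cords, and the 3 genes most like Nlgn1 and Cbln4. Some genes that this rule names are not reported here. No 2 libraries of a group agreed within sampling noise (smallest chi-square per degree of freedom 6.03). Limits from 3 counts cover counting error only.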

Additional observations from a re-analysis of the deposited data

Results flagged for a closer look

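Nrxn3 stood at 367 normalised CPM in the library labelled knockout replicate 9, while the other 8 KO cords had 239 to 299. Its gap to the nearest library was 0.527 of the range of the group, above Dixon's 95% critical value for 9 samples. It was the 1 such value among 16 groups (8 genes in KO and in WT cords), and chance marks about 1 group in 20. In the same library Sod1 had 1950 normalised CPM, against 191 to 263 in the other 8 KO cords.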

How the results depend on the processing

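Calls in cultures (1635 genes) ran on leaving out 1 library from 778 without control replicate 2 to 1985 without miR-146a LNA replicate 3, with 1059 without control replicate 1, and were 2141 with DESeq2, 2253 with limma and 2261 with no filter. Calls in cords (0) ran from 0 to 2 on leaving out 1 library, and were 348 with DESeq2, 3 with limma and 8 without knockout replicates 7 and 9. Calls between WT cords and control cultures (18015) stayed within 1.5 times under all 12 alternatives. The cause was not tested. Deviations of same-numbered culture libraries correlated at 0.01, -0.05 and 0.006, and those of differently numbered libraries at -0.08 to 0.078. With 3 libraries per group these values cannot settle whether same-numbered cultures shared a preparation, which the labels do not say. With the number as a replicate block 1793 genes were called, the same 4 members among them. Among the 8 genes no direction turned in the cultures or between materials. In cords the log2 fold change of Nlgn1 was 0.02 without knockout replicate 7 and 0.001 without wild-type replicate 1, that of Nrxn3 was -0.03 without the library labelled knockout replicate 9 and that of Cbln4 was 0.04 without that library and replicate 7, none of them called. Calls of Nrxn2 and Nlgn1 held under all 12 alternatives in cultures, those of Cbln2 under 8 and those of Cbln4 under 7. Counts of 24 to 144 limit the precision of Cbln4.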
